A study of Caenorhabditis elegans with 2 samples.

Results

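Between the peaks that pass a reproducibility threshold and the background of a chromatin immunoprecipitation sequencing (ChIP-seq) experiment lies a band of entries that a thresholded peak list leaves out and a relaxed list keeps. The regions described here are that band for eGFP-F16B12.6 in Caenorhabditis elegans. They were chosen by their pooled signal: in the relaxed list of both replicates pooled, on the ce11 assembly, entries were sorted by falling signal, the ranks from just after the 2183 of the thresholded list down to 4000 were taken, and those that overlapped a thresholded peak were left out. Of 1817 ranks, 4 overlapped one, which left 1813 regions of the 30000 entries in the list, and these are called subthreshold regions below. The next band down, another 1817 ranks, holds 1816 entries without such an overlap and serves for comparison.

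The animals were whole L1 larvae, the first larval stage, of mixed sex. Every sample was of strain OP114, which carries the unc-119 allele tm4063 on chromosome III and the transgene wgIs114. All of it is 1 group of 2 biological replicates, numbered 1 and 2, with no second strain, stage or treatment among the samples. The tagged protein comes from 1 transgenic strain, and signal from whole larvae averages over every tissue. F16B12.6 has no standard gene name.

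An immunoprecipitation enriches DNA fragments near which the tagged protein sat, directly or through other proteins, and a peak caller ranks the enriched places. A relaxed list keeps many weak entries on purpose, so that ranks from separate replicates can be compared before a threshold is set. In C. elegans most transcripts are trans-spliced, so the annotated 5' end of a gene often lies downstream of the place where transcription starts, and regulatory sequence tends to be packed close to genes.

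Pooled signal, the caller's own value per entry, ran from 11.4 to 21.7 in the subthreshold regions, with a median of 14.3 and quartiles of 12.5 and 17.1. These values chose the regions and are given as a description. Entries were sorted by this value, so neighbours on both edges differed little. The weakest thresholded peak had a signal of 21.6921 and the strongest subthreshold region 21.6916, while the last region at rank 4000 had 11.3686 and the entry after it 11.3650. The caller's −log10 q ran from 1.67 to 3.71, and 399 regions (22.01%) sat at its highest value in the list, 3.71. All 1813 regions were 250 bp wide, a width that 70.7% of the thresholded peaks also had. The regions were mostly isolated from thresholded peaks: the median distance to the nearest one was 11267 bp (quartiles 3289 and 29418 bp), and 102 regions (5.63%) lay under 500 bp away.

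The following stretches of 61 bp, centred on summits and written on the plus strand of ce11, show what such regions look like. The first 3 are the highest ranked printable regions that hold GAGAGA on either strand, the 6-mer with the lowest p at these summits, and capitals mark it.
Rank 2186, K02E2.11 promoter, chrV:20383253-20383313: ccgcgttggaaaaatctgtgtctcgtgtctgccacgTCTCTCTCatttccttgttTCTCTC
Rank 2189, dhhc-1 promoter, chrX:15100744-15100804: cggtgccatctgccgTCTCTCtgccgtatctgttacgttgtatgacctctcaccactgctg
Rank 2198, mlk-1 promoter, chrV:5065117-5065177: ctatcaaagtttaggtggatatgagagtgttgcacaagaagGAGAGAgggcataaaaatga
The next 3 hold the most frequent 10-mer of the regions, GAGACGCAGA, in capitals. It contains AGACGC and, on the other strand, CGTCTC.
Rank 2199, W06H8.6 promoter, chrV:6227689-6227749: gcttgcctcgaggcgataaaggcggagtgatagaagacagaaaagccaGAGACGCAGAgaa
Rank 2204, between genes, chrIII:10634706-10634766: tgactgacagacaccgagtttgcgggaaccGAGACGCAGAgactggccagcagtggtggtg
Rank 2211, in an intron, chrIII:13531029-13531089: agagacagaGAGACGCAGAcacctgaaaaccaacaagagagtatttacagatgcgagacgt
The last 3 hold neither in these 61 bp: a pair of high-ranked promoter regions, and a region whose summit lies inside a transfer RNA (tRNA) gene on X.
Rank 2188, F32D8.5 and F32D8.14 promoters, chrV:10894767-10894827: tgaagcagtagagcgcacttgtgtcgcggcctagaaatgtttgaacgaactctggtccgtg
Rank 2192, cest-5.1 and C01B10.9 promoters, chrIV:6632007-6632067: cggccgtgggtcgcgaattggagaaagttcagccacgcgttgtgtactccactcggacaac
Rank 2210, tRNA gene WBGene00006316, chrX:6371400-6371460: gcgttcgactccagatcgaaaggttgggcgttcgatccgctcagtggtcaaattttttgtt

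The regions stood between thresholded peaks and weaker entries in where they lay. Promoter windows were drawn around the 5' end of each protein-coding gene, reaching 1000 bp upstream and 200 bp into it, and they cover 21.5% of the genome. Of the 1813 summits, 782 lay in one, which is 43.1% (95% Wilson interval 40.9 to 45.4%). The share was 76.1% for thresholded peaks and 29.7% for the next band. The odds ratio was 0.238 against thresholded peaks (95% interval 0.208 to 0.273, two-sided Fisher's exact test, adjusted p = 4.32e-101) and 1.79 against the next band (1.56 to 2.06, Fisher's exact test, adjusted p = 9.25e-17). With the same ranks of replicate 2's own list in place of the regions, the odds ratio against thresholded peaks was 0.147. The thresholded list, which also served to leave out overlaps, still came from both replicates. These tests take regions as units, so they cover counting error only and not the spread between replicates.

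Outside promoter windows, 460 regions (25.4%) were intergenic, 395 (21.8%) intronic, 136 (7.501%) in coding exons and 40 (2.21%) in untranslated exons. Coding exons held 0.641% of thresholded summits and 17.02% of those in the next band, so the regions were again between the other sets. Of the 1031 summits outside the windows, 134 (12.997%) were in the window of another annotated transcript start of a gene. Where a summit was in a promoter window, 610 of 782 were in a single gene's window. Another 159 (20.3%) were in windows of genes on both strands, and 55 (7.03%) shared a window with a thresholded summit.

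Around gene starts the regions kept an upstream lean. The median summit position was −147 bp from the nearest protein-coding 5' end, against −162 bp for thresholded peaks and 86 bp for the next band. The spread was wide, with quartiles of −986 and 974 bp. Within 200 bp of a 5' end lay 376 regions (20.7%), against 44.1% and 13.1%. Of the summits within 1000 bp of a start, 74.2% were upstream, against 88.5% of thresholded peaks and 53.6% of the next band.

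**Figure D1:**
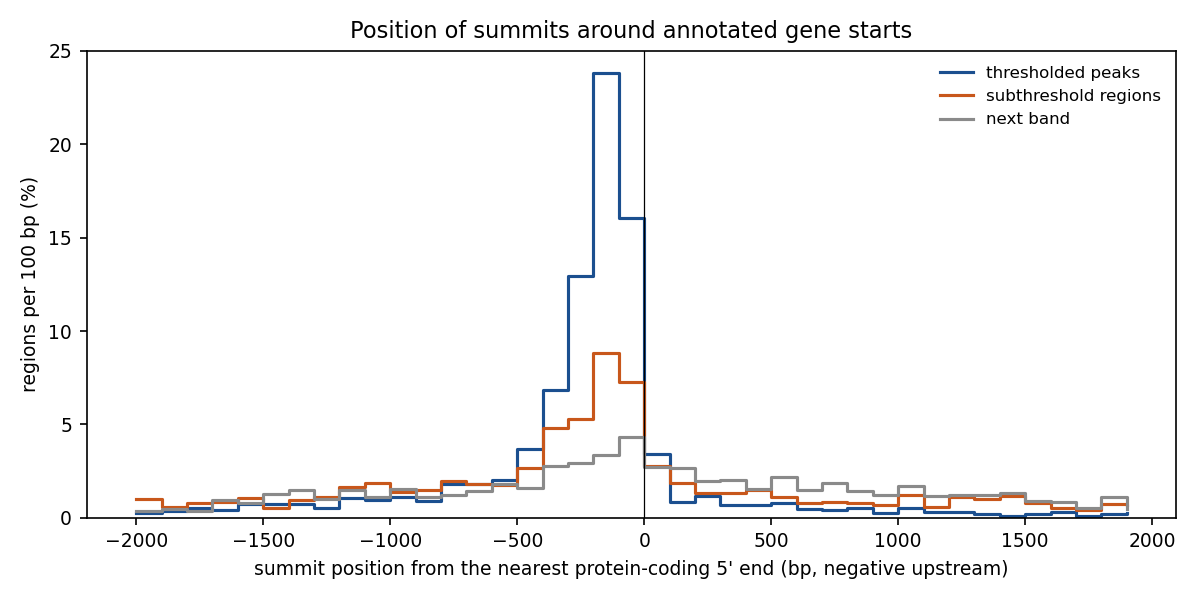
Summit position relative to the nearest annotated protein-coding 5' end (x axis, bp, negative upstream) as the percentage of each set per 100 bp (y axis); lines are thresholded peaks, subthreshold regions and the next band. In the bin from 200 to 100 bp upstream the shares are 23.8% of thresholded peaks, 8.83% of subthreshold regions and 3.36% of the next band.

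Support in the replicates' own lists came next. The replicates have relaxed lists of their own, each with 30000 entries, and a region was counted as found where an entry overlapped it by at least 1 bp. Both replicates had one at 1468 of 1813 regions (81.0%, 79.1 to 82.7%), replicate 1 alone at 260 (14.3%) and replicate 2 alone at 85 (4.69%). None had neither. Both-replicate support was 98.9% for thresholded peaks, 55.2% for the next band and 16.4% over all 25989 entries below rank 4000. Since the pooled signal was made from both replicates, these shares are descriptions and were not tested. Overlap also depends on the definition. With the summit required inside the replicate's entry the share was 68.1%, and with the 4000 strongest entries of each replicate it was 19.4%.

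The replicates ranked the regions differently. Each region took the rank of the best ranked entry that overlapped it, and 1 bp of overlap was enough. Among the 1728 regions found in replicate 1 the median rank was 3405.5 (quartiles 2559.75 and 5499.25, best 1340). Among the 1553 found in replicate 2 it was 3931 (2531 and 8675, best 980). Ranks beyond 10000 were held by 203 regions in replicate 1 and 333 in replicate 2. Regions with no entry, 85 in replicate 1 and 260 in replicate 2, had no rank and are left out of these values. A rank of 2183 or better, the depth of the thresholded list, was reached by 200 regions in replicate 1 and by 251 in replicate 2, but by 6 in both. Among regions found in both lists, 134 reached it in replicate 1 only and 206 in replicate 2 only. Few could reach it in both, since the regions were taken from below that rank in a list pooled from both replicates, and some lay just past it in 1 list, such as rps-5 with ranks 2286 and 2113.

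**Figure D2:**
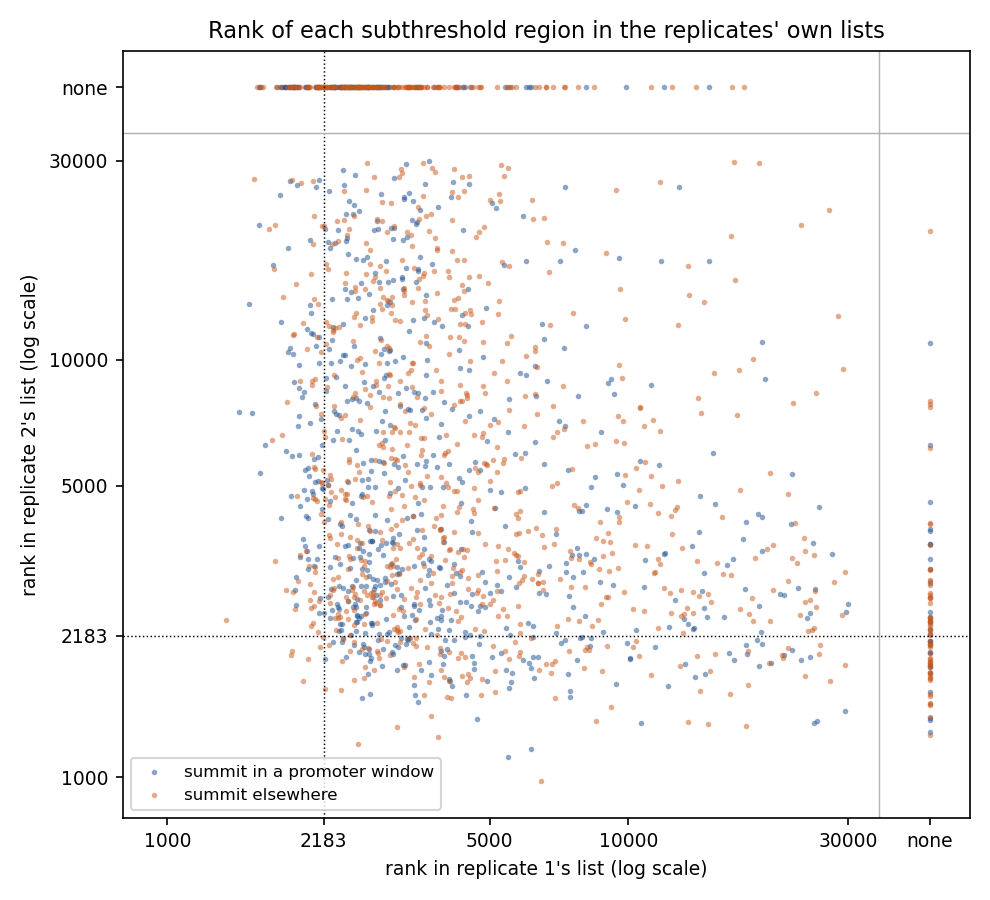
Rank of each of the 1813 subthreshold regions in replicate 1's list (x axis, log scale) and replicate 2's list (y axis, log scale), coloured by whether the summit is in a promoter window; "none" marks regions absent from that list and dotted lines mark rank 2183. The corner below both dotted lines holds 6 regions, and 351 regions (19.4%) rank 4000 or better in both.

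Examples chosen by rank show this at named genes. The region between ash-2, a subunit of a histone H3 methyltransferase complex, and Y17G7B.20 (II, 11979803 to 11980052) was at rank 1592 in replicate 1 and had no entry in replicate 2. The region at fbxa-150 and Y38H6C.9 (V, 20522317 to 20522566) likewise ranked 1579 in replicate 1 alone. In the other direction, wdr-23, which restrains the stress-response factor SKN-1, had a region (I, 7595583 to 7595832) at rank 1373 in replicate 2 and none in replicate 1. So did mstr-1 (I, 7082123 to 7082372) at rank 1285 and the region shared by arle-14 and abi-1, an actin regulator gene (III, 5692738 to 5692987), at rank 1385. The most even regions, those with the lowest larger rank, all lay outside promoter windows. The first of them (III, 3980305 to 3980554) ranked 3625 in the pooled list. The best ranked entries overlapping it were at 1856 and 1963 in replicates 1 and 2.

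Regions found in both replicates were at promoters more often than the others. In promoter windows lay 655 of 1468 (44.6%) against 127 of 345 (36.8%), an odds ratio of 1.38 (1.09 to 1.76, Fisher's exact test, adjusted p = 0.00934). The call was lost with a window of 500 bp upstream (odds ratio 1.21, Fisher's exact test, adjusted p = 0.145) and with 2000 bp (1.26, adjusted p = 0.0534). Found by replicate 1 alone, 38.5% were at promoters, and by replicate 2 alone, 31.8%. Signal moved with this: among the 905 stronger regions 87.8% were found in both replicates and 49.5% were at promoters, while among the 908 weaker ones the shares were 74.1% and 36.8%. Its part in the difference was not tested. The share of G and C at the summits was 44.3%, 43.3% and 43.4% in regions found in both, by replicate 1 alone and by replicate 2 alone.

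Along the pooled list most properties changed steadily across the band. The promoter share fell from 53.6% in ranks 2001 to 2500 to 32.4% in ranks 3501 to 4000, and both-replicate support from 93.8% to 71.0%. Other features rose among the thresholded ranks and fell later. The 6-mer GAGAGA was in the 100 bp around 10.2% of the summits in ranks 1 to 500, 26.2% in ranks 1501 to 2000, 32.8% in ranks 2001 to 2500 and 17.4% in ranks 3501 to 4000. For CGTCTC the shares were 10.8%, 23.6%, 19.2% and 10.2% in the same ranks. Summits within 500 bp of a tRNA gene were 0.4% of ranks 501 to 1000, 3.60% of ranks 1001 to 1500, 4% of ranks 1501 to 2000, 5.80% of ranks 2001 to 2500 and 4.60% of ranks 3501 to 4000.

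**Figure D3:**
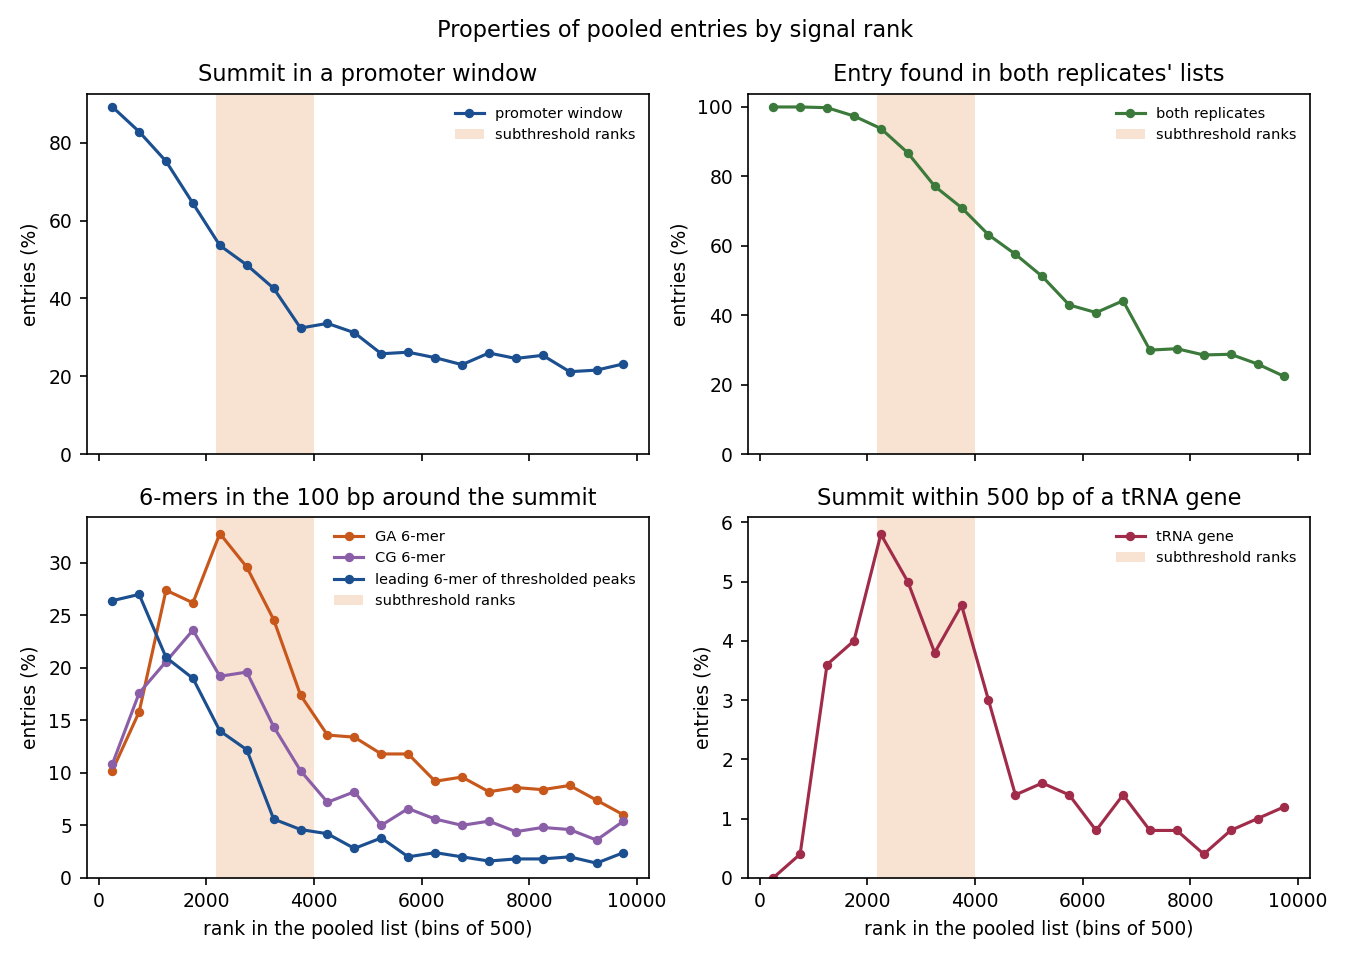
Percentage of pooled entries (y axes) in bins of 500 ranks (x axes) with the summit in a promoter window, with an entry in both replicates' lists, with 3 named 6-mers in the 100 bp around the summit, and with a tRNA gene within 500 bp; shading marks the ranks of the subthreshold regions. The GA 6-mer is GAGAGA, the CG 6-mer is CGTCTC and the leading 6-mer of thresholded peaks is ACGCGC, which falls from 26.4% in the first bin to 4.60% in ranks 3501 to 4000.

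Sequence at the summits was compared with sequence 200 bp to one side, as presence of each 6-mer, either strand, in 100 bp. Of all strand-merged 6-mers, 405 (19.5%) were more frequent at the summits and 298 (14.3%) less, by McNemar's exact test with Benjamini-Hochberg adjustment at 0.05. The lowest p was that of GAGAGA. It was followed by AGAGAG, then CGTCTC, then AGAGAC, then AGACGC, all built on runs of GA or GAGACG and overlapping one another. GAGAGA was at 463 summits (25.5%) and in 149 flanks (8.22%; exact McNemar, adjusted p = 2.53e-44). CGTCTC was at 15.8% of summits and in 4.30% of flanks, and AGACGC at 12.7% and 3.03%. In the 100 bp upstream of all 19973 protein-coding 5' ends, GAGAGA was present in 8.77%, CGTCTC in 3.84% and AGACGC in 2.48%.

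The count of 6-mers depended on the list. In the same ranks of replicate 2's own list 67 6-mers were higher, and in replicate 1's list 200 were. GAGAGA remained among the 3 with the lowest p in replicate 1's list (21.4% of summits, 9.80% of flanks) but not in replicate 2's, where AGAGAG was (13.04% and 6.61%). G and C moved with the sets too: the 100 bp at the summits held 44.1% ± 8.69 G and C (SD over 1813 regions), against 47.2% ± 7.14 in thresholded peaks, 39.4% ± 9.29 in the next band and 35.4% in the genome. The part of base composition in the 6-mer counts was not tested.

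Set against thresholded peaks, the regions held different 6-mers; this comparison and the next 2 were added after the data had been seen. By Fisher's exact test over all 6-mers, 308 6-mers (14.8%) were more frequent in the regions and 272 (13.1%) less. ACGCGC, with the lowest p, was at 8.27% of the regions and 22.9% of thresholded peaks (odds ratio 0.304, 0.251 to 0.370, Fisher's exact test, adjusted p = 4.98e-34). GAGAGA went the other way, at 25.5% against 20.9% (odds ratio 1.30, 1.12 to 1.501, Fisher's exact test, adjusted p = 0.00438). The thresholded peaks nearest the band had shares like that of the regions: GAGAGA was at 27.4% in ranks 1001 to 1500 and 26.2% in ranks 1501 to 2000, and at 10.2% and 15.8% in the first 500 ranks and the 500 after them. CGTCTC was at 15.8% and 18.003%, a difference that did not pass (odds ratio 0.857, 0.725 to 1.01, Fisher's exact test, adjusted p = 0.165).

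Against the next band, 219 6-mers (10.5%) were more frequent in the regions and 148 (7.12%) less. GAGAGA was at 25.5% against 12.9% (odds ratio 2.32, 1.95 to 2.76, Fisher's exact test, adjusted p = 2.54e-19), and CGTCTC at 15.8% against 6.55% (odds ratio 2.68, 2.14 to 3.36, Fisher's exact test, adjusted p = 2.26e-16). ACGCGC was also at a higher share, at 8.27% against 3.41%.

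Within the regions, promoter summits were set against the 1031 elsewhere. Here 20 6-mers (0.962%) were more frequent at promoters and 4 (0.192%) less. GAGCGC led, at 14.96% of promoter regions and 5.43% of the others (odds ratio 3.06, 2.19 to 4.28, Fisher's exact test, adjusted p = 2.05e-08), and ACGCGC was at 12.02% and 5.43%. For GAGAGA the shares were 24.6% and 26.3% (odds ratio 0.913, 0.737 to 1.13, Fisher's exact test, adjusted p = 0.824), so a difference between promoters and other places was not detected.

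**Figure D4:**
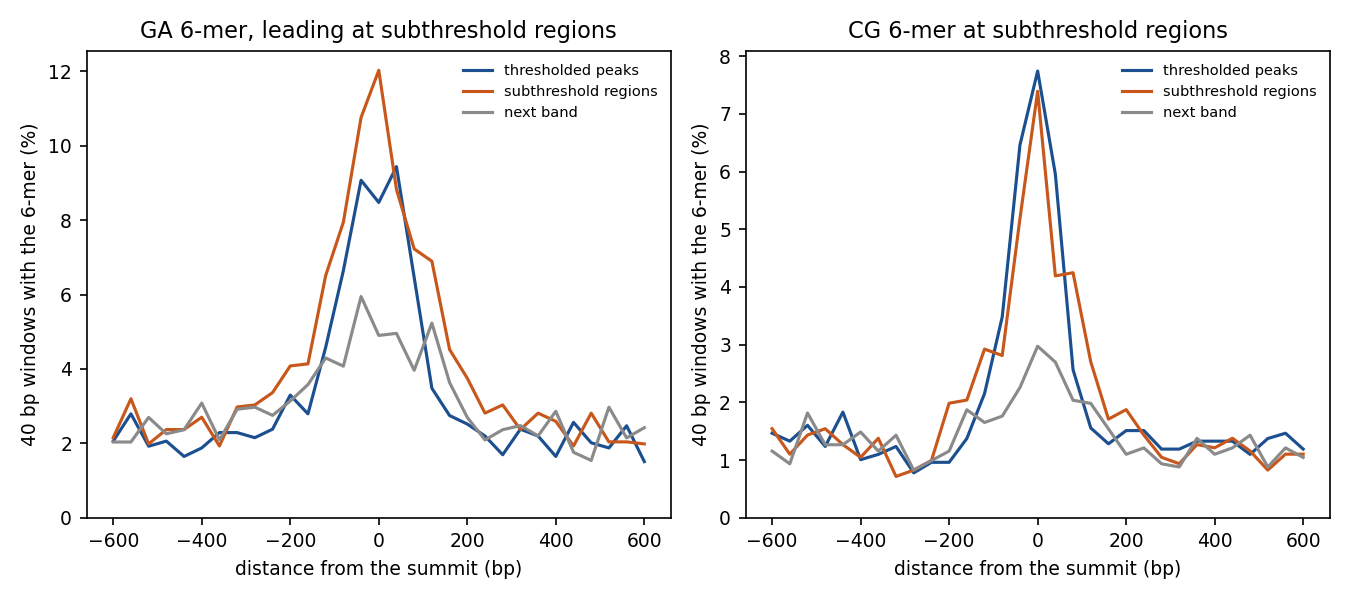
Percentage of 40 bp windows holding GAGAGA (left) and CGTCTC (right) by distance from the summit (x axes, bp) in thresholded peaks, subthreshold regions and the next band. At the summit GAGAGA is in 12.02% of the windows of subthreshold regions, 8.47% of those of thresholded peaks and 4.90% of those of the next band, and CGTCTC is in 7.39%, 7.74% and 2.97%.

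Longer words, chosen after their values were seen and not tested, showed the same pair of patterns. GAGACGCAGA was at 101 regions (5.57%), 8.25% of thresholded peaks and 1.76% of the next band, and in 0.716% of the upstream stretches of all genes. The pure repeat GAGAGAGAGA was at 63 regions (3.47%), 1.74% of thresholded peaks and 0.991% of the next band. Regions with GAGAGA were at promoters in 41.5% of cases and found in both replicates in 80.6%, against 43.7% and 81.1% for those without it. Soft-masked summits, in sequence marked as repetitive in the assembly, were 17.5% of the regions with GAGAGA and 24.1% of those without.

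The X chromosome held more of the regions than of the thresholded peaks. On X lay 265 regions (14.6%) and 211 thresholded peaks (9.67%), an odds ratio of 1.60 (1.32 to 1.94, Fisher's exact test, adjusted p = 2.44e-06). The thresholded peaks were the low set: X held 13.5% of the next band (12.05 to 15.2%, against 13.1 to 16.3% for the regions) and 16.2% of all entries below rank 4000. Per megabase the regions were densest on III at 28.7 and I at 24.0, followed by II at 17.9, IV at 15.8, X at 14.96 and V at 11.5. Genes for tRNAs, many of which lie on X, moved with this: 33 of the 265 regions on X had one within 500 bp. Without regions and peaks near tRNA genes, an alternative added after seeing the data, 232 of 1727 regions (13.4%) and 198 of 2133 peaks (9.28%) were on X, an odds ratio of 1.52 (Fisher's exact test, adjusted p = 7.69e-05).

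Genes for tRNAs, which RNA polymerase III transcribes from promoter elements inside the gene, were near 86 regions (4.74%, 3.86 to 5.82%). Near thresholded peaks the share was 2.29% (1.74 to 3.01%) and in the next band 1.82% (1.30 to 2.54%); this class was singled out after its values were seen and was not tested. The average of the thresholded peaks hides a rise with rank, to 3.60% and 4% in ranks 1001 to 1500 and 1501 to 2000, of which the second is inside the interval of the regions. The 86 regions were near 92 of 612 annotated tRNA genes, and 45 summits lay inside the gene. The median summit was 28 bp downstream of the tRNA 5' end (quartiles −12.75 and 54.75 bp), and 72 were within 100 bp of it. Both replicates had 69 of the 86, and 33 (38.4%) were on X, where 45.1% of tRNA genes are. The highest ranked, at WBGene00006316 (X, 6371305 to 6371554, signal 21.4), ranked 8516 in replicate 1 and 1366 in replicate 2. Genes for tRNAs come in near-identical copies, so reads can be split among them, and no source used here says how repeated matches were handled.

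A summit of a subthreshold region lay in the promoter window of 945 of 19973 protein-coding genes (4.73%), against 2356 (11.8%) for thresholded peaks. Of the 945, 62 also held a thresholded summit and 883 did not, and the sets together reached 3239 genes (16.2%). With the same ranks of replicate 2's own list the count was 613 genes, and with those of replicate 1's it was 788. The genes at the highest ranked regions include sur-2, a Mediator subunit gene (I, 14787812 to 14788061, ranks 1632 and 6241 in replicates 1 and 2), and lem-2, which encodes an inner nuclear membrane protein (II, 14063215 to 14063464, ranks 3084 and 1978). Also there were pif-1, a DNA helicase gene, sharing a region with rec-1, which acts on meiotic crossover placement (I, 719833 to 720082, ranks 3448 and 1576), and mlk-1, a kinase gene of stress signalling (V, 5065022 to 5065271, ranks 3290 and 2092). Of these, sur-2 ranked better in replicate 1 and the others in replicate 2.

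At F16B12.6 itself (X, 14102316 to 14107913) no region lay in the promoter window or within 1000 bp of the gene. The nearest, at rank 2306, had its summit 13426 bp from the gene's 5' end and lay at a tRNA gene. The gene unc-119 (III, 10902641 to 10908935), whose mutant allele the strain carries, had none in its promoter window and 2 in the gene or within 1000 bp of it.

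Gene groups are given as counts with no test, to be read beside the 4.73% of all genes with a subthreshold summit and the 11.8% with a thresholded one. Thresholded peaks and the entries overlapping them were left out by the rule. A list with most of its genes at thresholded peaks thus had few genes left for a region. Shares of lists that differ in this are not alike. A region in the windows of several genes was counted for each. Of genes named below, aars-1, rars-1, eif-4A3, prp-4, ints-3, sec-23, atp-5, cox-10, rpn-1, rpn-6.1, unc-60, mes-6 and klp-11 shared theirs with a gene not named. Of 33 lists, 24 were above the share of all genes, and 6 had a higher share with a subthreshold than with a thresholded summit. Some of the 24 were about level with all genes, such as nuclear hormone receptor genes at 4.74%, germline genes at 4.92% and histone genes at 5%.

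In protein synthesis, 5 of 83 cytosolic ribosomal protein genes (6.02%) had a region, while 70 had a thresholded peak. Among them rps-5 had signal 20.6 (ranks 2286 and 2113 in replicates 1 and 2), and rps-2 had 19.8 with ranks as far apart as 29453 and 1439. Mitochondrial ribosomal protein genes had 9 of 70 (12.9%), among them mrps-23 (signal 21.3, ranks 3166 and 2054). Aminoacyl-tRNA synthetase genes, whose products charge tRNAs, had 4 of 32 (12.5%), among them aars-1 and rars-1. None of the 4 also held a thresholded summit, as with 93.4% of all genes with a region. Translation factor genes had 4 of 42 (9.52%), including eif-4A3, a component of the exon junction complex, and iff-1, which shares its region with cdk-1.

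In the cell cycle and DNA replication list 12 of 76 genes (15.8%) had a region and 41 a thresholded peak. The kinase genes cdk-1 (III, 9747229 to 9747478, signal 19.6, ranks 4633 and 1880), cdk-2 (signal 19.3, ranks 3700 and 1885) and cdc-7 (signal 19.4, ranks 3922 and 2441) led it, all ranked better in replicate 2. Of these, cdc-7 also held a thresholded summit. Splicing factor genes had 8 of 68 (11.8%), led by prp-4. Genes of the RNA polymerase and general factor list had 6 of 82 (7.32%), among them ints-3 and ints-8 of the Integrator complex. Nuclear pore and transport genes had 3 of 40, and 33 held a thresholded summit.

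Counted over all genes of a list, autophagy genes had the highest share of any, 6 of 26 (23.1%), beside 10 with a thresholded peak. Lists with more genes at thresholded peaks had fewer left, so this order alone does not set autophagy genes apart. The Atg8 homologues lgg-2 (IV, 10936046 to 10936295, signal 19.9, ranks 2088 and 5089) and lgg-1 (II, 6348429 to 6348678, signal 14.9, ranks 4435 and 1574) were both among them, and lgg-1 also held a thresholded summit. Another was epg-4 (signal 18.1). With hlh-30 (IV, 4034963 to 4035212, signal 17.5, ranks 1985 and 5460), which encodes a regulator of autophagy and lysosome genes, the bHLH list had 3 of 38 (7.89%). Lysosome and V-ATPase genes had 4 of 63 (6.35%), with the proton pump subunit gene vha-14 at signal 21.1. Vesicle sorting and secretion genes had 13 of 93 (13.98%), led by sec-23, a coat protein gene of vesicles leaving the endoplasmic reticulum, and snx-1. None of these 13 also held a thresholded summit, and of all 945 genes with a region 93.4% held none.

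Respiratory chain and ATP synthase genes had 7 of 53 (13.2%), with atp-5 at signal 21.4 and cox-10 at 18.8, the latter found in replicate 1 alone. Proteasome genes had 4 of 33 (12.1%), including rpn-6.1 and rpn-1, and 23 held a thresholded summit. Heat-shock protein and chaperonin genes had 8 of 62 (12.9%), led by dnj-25. One region (V, 1804913 to 1805162) lay between hsp-16.2 and hsp-16.41, a pair of small heat-shock genes with related genes elsewhere. Whether reads are ambiguous there was not tested. Ubiquitin pathway genes had 4 of 75 (5.33%), among them cul-1, a scaffold of ubiquitin ligases.

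Chromatin genes had 5 of 77 in the histone-modifying list (6.49%), with the deacetylase genes hda-1 (signal 18.6) and hda-11 (signal 20.02), and 4 of 80 among histones. The region of hda-1 was shared with ril-1 and that of hda-11 with C35A5.8. Among the histone genes, his-61 and his-62 shared a single region. Germline genes had 3 of 61 (4.92%), rec-1 and the Polycomb-group genes mes-3 and mes-6. All 3 were without a thresholded summit, as were 93.4% of all genes with a region.

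In 6 lists the share was higher below the threshold than above. Body wall muscle genes had 6 of 41 (14.6%) against 4 (9.76%), with unc-45, a myosin chaperone gene (III, 491188 to 491437, signal 19.2, ranks 2014 and 3340), unc-60, a cofilin gene (signal 16.8), and pat-6, an attachment protein gene (signal 12.8). Nuclear hormone receptor genes had 13 of 274 (4.74%) against 5 (1.82%), a share level with that of all genes, led by nhr-1 (X, 17513607 to 17513856, signal 18.8, ranks 1916 and 6942). The signalling list had 4 of 53 (7.55%) against 3 (5.66%): wrm-1, a beta-catenin gene (signal 20.9), lag-1, the Notch pathway transcription factor gene (signal 18.7), and sel-12, a presenilin gene (signal 13.4), were the highest. Homeobox factor genes had 4 of 91 (4.40%) against 3, among them ceh-20, a Pbx-type factor gene. The bHLH list and the detoxification list, with 5 of 190 (2.63%) against 2, were the others.

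The remaining lists had between 0 and 8 genes with a region. Chemoreceptor genes had 4 of 1310 (0.305%), C-type lectin genes 1 of 240 (0.417%), cuticle collagen genes 1 of 174 (0.575%), neuropeptide and insulin genes 1 of 145 (0.690%) and F-box and BATH genes 8 of 358 (2.23%). The single neuropeptide gene was flp-23, whose region was found in replicate 1 alone. That region also lay at a tRNA gene, WBGene00023002, with its summit 28 bp from the tRNA 5' end and 343 bp upstream of flp-23. Major sperm protein genes had 0 of 47, which allows a share of up to 6.38%. The heterochronic list, which times larval development, had 1 of 14, lin-28 (I, 8411233 to 8411482, signal 14.9), at rank 19465 in replicate 1 and 2087 in replicate 2. Neurotransmission genes had 1 of 46 (2.17%), egl-21, and cilia genes 4 of 66 (6.06%), among them klp-11, a kinesin gene of ciliary transport.

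**Figure D5:**
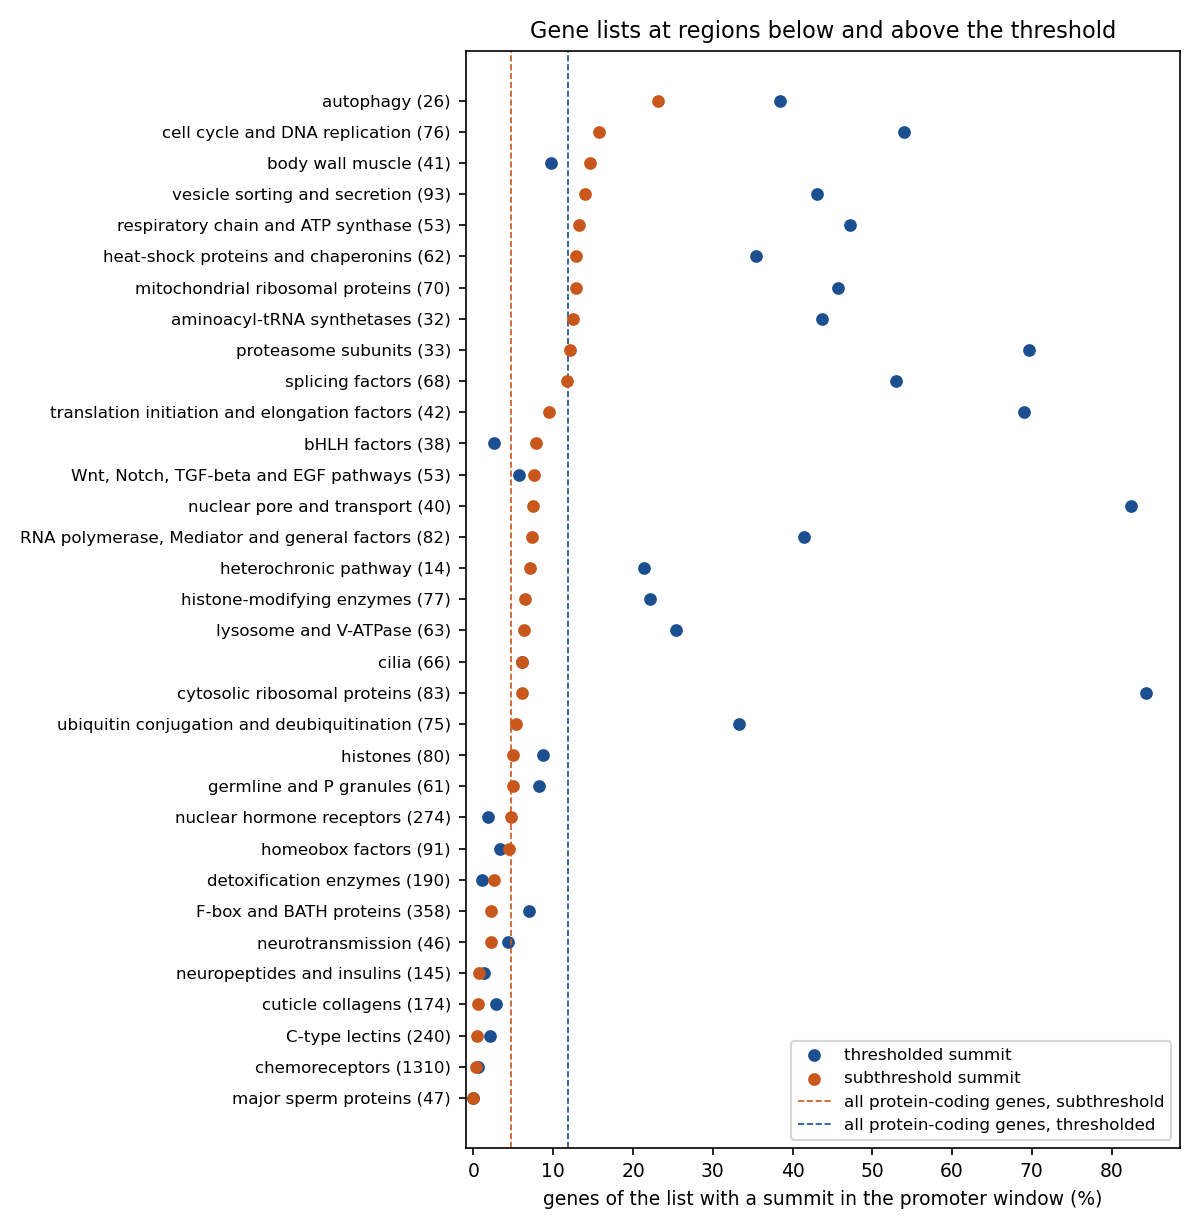
Percentage of each list's genes (x axis; number of genes in brackets) with a summit in the promoter window, for subthreshold regions and for thresholded peaks; dashed lines are the shares of all protein-coding genes, 4.73% and 11.8%. Autophagy genes have the highest subthreshold share, 23.1%, and cytosolic ribosomal protein genes the highest thresholded share, 84.3%.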

How the data were processed

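Binding of eGFP-F16B12.6 was profiled by ChIP-seq in whole L1 larvae, with 2 biological replicates. The authors deposited 8 peak lists, 4 on each of the assemblies ce11 and ce10, per the labels. According to the deposited readme notes, the relaxed list of a replicate came from that replicate's alignments and a control, the pooled relaxed list from both, and the thresholded list from the pooled and replicate lists by the irreproducible discovery rate. No source used here names the aligner, the caller or the threshold. The lists have no header: the seventh column was read as the caller's deposited signal and the ninth as its deposited −log10 q value. Both are the authors' own values and served to rank entries within 1 list. Read depth is unknown.

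Gene positions came from Ensembl release 115 for WBcel235 and sequences from the RefSeq assembly, which share ce11 coordinates. Coordinates are 1-based. Promoter classes took precedence over coding exon, untranslated exon and intron. Wilson intervals at 95% are given for shares and hold counting error alone. The 4 Fisher's exact tests were adjusted together by the Benjamini-Hochberg method; 6-mers were adjusted over all of them. A list with 0 genes is given the share that 3 would be. The printed sequences come from 4 of the 6 nuclear chromosomes. Named genes were those at the highest ranked regions, F16B12.6 and unc-119, the highest in each of the 33 lists, and the best ranked regions found in 1 replicate or evenly in both. The regions, lists and tests were chosen with earlier results of these data known. The tests were tested on simulated data. Alternatives were other windows, overlap rules, stronger and weaker ranks, the ce10 lists and single replicates. Python 3.11.15, NumPy 2.4.6, SciPy 1.17.1 and Matplotlib 3.10.9 were used.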

Additional observations from a re-analysis of the deposited data

How the results depend on the processing

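Of 59 alternative values, 39 kept their direction and call, or stayed within the counting interval or 1.5 times of the main value, 18 moved, 2 lost the call and 0 reversed. The promoter share, 43.1% as reported, was 33.5% with a window of 500 bp upstream, 56.6% with 2000 bp, 46.9% by any overlap, 49.5% in the stronger and 36.8% in the weaker regions, and 31.9 to 40.7% in the same ranks of a single replicate's list. Genes with a summit, 945, were 545 and 410 in the stronger and weaker regions and 613 to 788 in single replicates. Both-replicate support, 81.0%, was 68.1% by summit, 68.2% by overlap of at least 50% of the region, 52.8% and 19.4% with the 10000 and 4000 strongest entries, and 87.8% and 74.1% in the stronger and weaker regions. The promoter odds ratio of regions found in both replicates fell short of the threshold at 1.21 (500 bp) and 1.26 (2000 bp). The cause was not tested. The 6-mers higher at summits, 405, were 67 to 200 in single replicates. The odds ratios against thresholded peaks, the next band and on X kept direction and call in every alternative run. Against the thresholded list of both replicates, the promoter odds ratio was 0.147 with the ranks of replicate 2's list and 0.215 with those of replicate 1's. No paired analysis was possible because both replicates are of 1 group. Depth is unknown, so no limit from it can be given.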

Other observations

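Other non-coding genes near the regions, counted within 500 bp of a summit and not tested, took several courses across the bands. Small nucleolar RNA genes, whose products guide RNA modification, were near 37 regions (2.04%), 67 thresholded peaks (3.07%) and 13 entries of the next band (0.716%). The intervals of the regions and the thresholded peaks overlap. Spliceosomal small nuclear RNA genes were near 4 regions (0.221%), 16 thresholded peaks (0.733%) and 1 entry of the next band (0.0551%). The interval of the regions overlaps both others. MicroRNA genes were near 12 regions (0.662%), 16 thresholded peaks (0.733%) and 5 entries of the next band (0.275%), whose intervals overlap. For genes of piRNAs, the small RNAs that guard the germline genome, the order was the opposite: 28 thresholded peaks (1.28%), 53 regions (2.92%) and 69 entries of the next band (3.7996%). For piRNA genes the intervals of the regions and the next band overlap. Pseudogenes were near 29 regions (1.60%), 46 thresholded peaks (2.11%) and 35 entries of the next band (1.93%), whose intervals overlap.

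Soft-masked sequence lay at 407 summits (22.4%, 20.6 to 24.4%), against 17.8% of thresholded peaks, 28.8% of the next band and 35.7% of the genome's bases. Of the regions found by replicate 2 alone, 14 of 85 (16.5%) were soft-masked, and of those found by replicate 1 alone 60 of 260 (23.1%).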
